A study of Mus musculus with 6 samples.

Results

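Krt4 and Krt13 encode a type II and a type I keratin that assemble with each other into filaments in the suprabasal cells of non-cornified stratified epithelia such as the oral mucosa and the oesophagus. The pair was followed here in the mouse handpad, the paddle-shaped end of the forelimb, as 2 genes of the 34989 to which the sequenced transcripts were assigned. It was picked by gene name after the contrast of knockout with wild-type had been seen, because in earlier results of these data one partner was lower and the other higher in the knockout. Their differences between the genotypes are therefore given as a description, with no test. Both genes passed the filter on low counts that 16938 genes passed.

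Polyadenylated RNA of C57BL/6 handpads at stage E14.5 of embryonic development was sequenced from 3 wild-type (WT) samples and 3 samples labelled Grhl3KO. Grhl3 encodes a transcription factor of the grainyhead family that acts in surface epithelium, and the series asks what epithelial migration and the periderm contribute to the separation of the digits. The labels give no other allele or agent, do not say which part of Grhl3 was removed, and do not say whether replicates were separate embryos or pools, so that p-values measure only how far these samples spread, which may be technical.

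Keratins form obligate pairs of a type I and a type II chain, and the pair a cell makes is a mark of its place and state. Embryonic skin at this stage is covered by the periderm, a flat outer layer that is later shed, over basal and intermediate layers of the future epidermis. In adult cornified skin the suprabasal pair is Krt1 with Krt10, and Krt4 with Krt13 takes that place in internal stratified epithelium.

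The libraries held 38052692 to 56037639 estimated counts. WT replicate 1 stood apart: its log2 CPM (counts scaled to library size) correlated at 0.973 to 0.975 with the other wild-type libraries and at 0.971 to 0.979 with the knockout libraries, against 0.988 between WT replicates 2 and 3. The 4 Y-linked genes summed to 282.9 and 326.5 CPM in WT replicates 2 and 3, to 5.57 CPM in WT replicate 1 and to 3.43 to 4.49 CPM in the knockout libraries. Y-linked expression was thus unevenly spread over the genotypes, and results are given below also for the 4 libraries with low Y-linked counts, where the lone wild-type library is assumed to vary like the knockout libraries. Grhl3 itself was at 14.3, 45.7 and 18.5 CPM in wild-type and at 3.10, 2.86 and 2.95 CPM in knockout samples and was thus lower in every knockout library; what the remaining reads stand for cannot be said without the deleted part.

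The sequences bear on which reads could be told apart and on where Krt13 transcription may start. Krt4 (ENSMUSG00000059668.6) lies on the minus strand of chromosome 15, 101918535 to 101924735 in mm10, within the type II keratin cluster, and the files hold 1 transcript of it, Krt4-201. Krt13 (ENSMUSG00000044041.4) lies on the minus strand of chromosome 11, 100117327 to 100121566, within the type I cluster, and the files hold 3 transcripts of it. Krt13-201 is the protein-coding form of 1654 bases in 8 exons. Krt13-202 is a non-coding processed transcript of 512 bases that begins 989 bases downstream, inside the first intron of Krt13-201, and Krt13-203 is a retained-intron form of 207 bases. The RefSeq promoter table (GRCm38.p6) holds 2 windows for Krt13, each from 250 bases before to 50 bases after a start, and the second start is the first base of Krt13-202. In both windows below, and in the first exon of Krt13-202 that follows them, sequences run 5′ to 3′ on the minus strand. Capitals in the windows mark the 50 bases from the start site onward.
Krt13 main start, chr11:100121517-100121816: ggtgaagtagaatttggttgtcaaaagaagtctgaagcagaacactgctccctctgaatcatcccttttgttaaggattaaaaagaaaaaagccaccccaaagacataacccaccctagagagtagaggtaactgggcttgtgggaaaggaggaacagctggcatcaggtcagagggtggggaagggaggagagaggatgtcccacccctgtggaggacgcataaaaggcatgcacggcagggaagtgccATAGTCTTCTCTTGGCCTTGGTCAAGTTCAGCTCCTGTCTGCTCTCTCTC
Krt13 internal start, chr11:100120528-100120827: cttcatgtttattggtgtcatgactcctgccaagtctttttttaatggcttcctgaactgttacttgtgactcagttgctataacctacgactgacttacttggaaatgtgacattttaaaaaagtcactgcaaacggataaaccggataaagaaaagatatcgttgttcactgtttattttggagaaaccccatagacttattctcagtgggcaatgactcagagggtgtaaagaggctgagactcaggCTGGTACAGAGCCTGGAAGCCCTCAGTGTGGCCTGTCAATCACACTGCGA
Krt13-202 first exon, chr11:100120493-100120577: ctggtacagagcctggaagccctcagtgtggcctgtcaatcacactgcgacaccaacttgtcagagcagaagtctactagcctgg

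Neither Krt13 window held the grainyhead consensus AACCGGTT, its looser form AACNNGTT or the letters TATAAA, known from promoters that bind TBP, searched on both strands. Only exact letters were searched, so the absence of a looser site is not shown. The main window holds cataaa and the internal one aaccggat, each 1 base off. How many of all windows hold such near matches was not counted. Among 32851 promoter windows of the same length in the table, 0.146% held AACCGGTT, 4.20% AACNNGTT, which includes it, and 13.6% TATAAA. The letters CACCC, the core bound by Krüppel-like factors, occurred 4 times in the main window and 1 time in the internal one, and 57.5% of all windows held it.

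Reads of Krt4 and Krt13 were nearly free of sharing with other genes. Of 2103 stretches of 31 bases in Krt4-201, 24 (1.14%) also occur in transcripts of Krt2, Krt5 or Krt7, and of 1624 in Krt13-201, 3 (0.185%) occur in Krt14, Krt16, Krt17 or Krt19. The longest run that Krt13-201 shares with 1 such gene is shown because reads inside it could be divided between keratins, and it codes for the conserved beginning of the keratin rod domain.
Krt13-201 shared with Krt14, 31 bases: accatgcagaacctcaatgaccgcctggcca

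Krt4 was the higher partner in wild-type handpads and was lower in the knockout. It measured 37.6, 83.3 and 46.5 CPM in WT replicates 1, 2 and 3 and 22.4, 13.1 and 14.2 CPM in knockout replicates 1, 2 and 3. All 3 knockout libraries lay below all 3 wild-type libraries, a separation that 6.16% of tested genes showed in that direction. WT replicate 2 was the highest of its group. The means were 55.8 ± 24.3 and 16.6 ± 5.05 CPM (SD, n = 3 per group), a ratio of 3.37. The fitted log2 fold change was -1.75 (SE 0.31), at counts of 623 to 4156 per library. It was -1.34 without WT replicate 2, -2.03 without knockout replicate 1, and -1.18 over the 4 libraries with low Y-linked counts.

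Krt13 was near the limit of detection in wild-type handpads and was higher in the knockout. Its level was 0.607, 0.782 and 0.379 CPM in wild-type, from only 23, 39 and 15 estimated counts, and 15.5, 5.14 and 13.9 CPM in knockout replicates 1, 2 and 3, from 765, 244 and 763 counts. The groups did not overlap, and 6.77% of tested genes had all knockout above all wild-type libraries. Knockout replicate 2 was the lowest of its group, and it was also the lowest for Krt4. The means were 0.590 ± 0.202 and 11.5 ± 5.58 CPM (SD, n = 3 per group), a ratio of 19.5, and the fitted log2 fold change was 4.27 (SE 0.47). Over the 4 libraries with low Y-linked counts it was 4.25. In bulk tissue, more cells that express a gene and more RNA of it per cell cannot be told apart. The authors' deposited table lists Krt4 at a log2 fold change of -1.75 and Krt13 at 4.27.

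On the length-corrected TPM scale, on which the genes can be compared, Krt4 exceeded Krt13 by far in every wild-type library and the levels were close in the knockout. Krt4 stood at 19.6, 55.7 and 30.6 TPM in wild-type and at 13.4, 7.70 and 7.98 TPM in knockout samples. Krt13, summed over its transcripts, stood at 0.437, 0.726 and 0.722 TPM in wild-type and at 21.4, 6.14 and 15.6 TPM in knockout samples. Krt4 was thus 42.4 to 76.7 times Krt13 in the wild-type libraries and 0.628, 1.25 and 0.512 times Krt13 in knockout replicates 1, 2 and 3. With only the protein-coding Krt13-201 counted, the ratio of Krt4 to Krt13 was 44.9 to 95.0 in wild-type and 1.09, 1.91 and 0.768 in knockout replicates 1, 2 and 3. Which partner was higher in knockout replicate 1 therefore depended on the transcripts counted, while the wild-type order did not. Krt4 and Krt13-201 together came to 35.8 ± 18.6 TPM in wild-type and 18.6 ± 7.0 TPM in knockout libraries (SD, n = 3), and the groups overlapped, at 20.1 to 56.4 and 11.7 to 25.7 TPM.

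**Figure D1:**
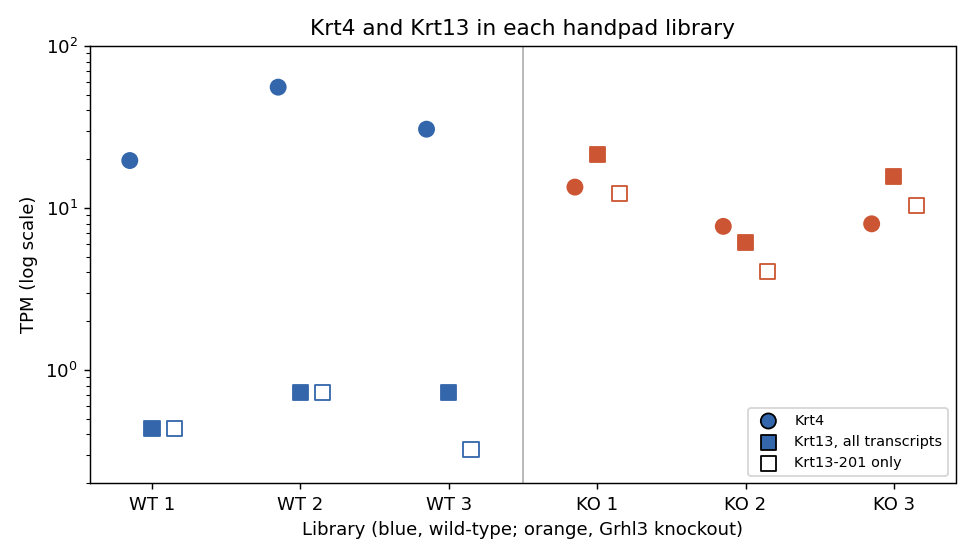
TPM on a log axis in each of the 6 libraries, for Krt4 (circles), Krt13 summed over its transcripts (filled squares) and Krt13-201 alone (open squares); blue is wild-type, orange Grhl3 knockout, and each point is 1 library. Krt13 lies below 1 TPM in the 3 wild-type libraries and at 6.14 to 21.4 TPM in the knockout libraries, where it lies beside Krt4.

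The distance between the 2 Krt13 values came from Krt13-202. That transcript was given 0, 0 and 1.11 estimated counts in wild-type samples and 39.2, 8.92 and 28.0 in knockout replicates 1, 2 and 3, which is 5.12%, 3.65% and 3.67% of the Krt13 counts in the knockout. Its effective length, the number of positions where a fragment could start, was only 78.4 to 112 bases, against 1219 to 1254 bases for Krt13-201, so the same reads made up 42.6%, 34.3% and 33.3% of the summed Krt13 TPM. Of its 482 stretches of 31 bases, 84 (17.4%) are absent from Krt13-201, and reads on the rest had to be divided by estimation. Krt13-203 was listed at 0 in all 6 libraries.

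The division of Krt13 counts between transcripts was not used to pick the gene, but 3 samples against 3 with so few wild-type counts could not show a difference in it. Krt13-201 held 97.5 ± 4.26% of Krt13 counts in wild-type and 95.9 ± 0.844% in knockout libraries (SD, n = 3, p = 0.60, two-sided exact permutation test, whose smallest possible p is 0.10). The wild-type libraries could not exclude a share like that of the knockout. In WT replicates 1 and 2, 0 counts of 23 and of 39 allow up to 13.04% and 7.69%, taking 3 counts as the limit, which covers counting error only. The 7.38% of WT replicate 3 rested on 1.11 estimated counts, and without that library the difference between the genotypes was -4.15 percentage points in place of -1.69 (exact permutation p = 0.10).

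**Figure D2:**
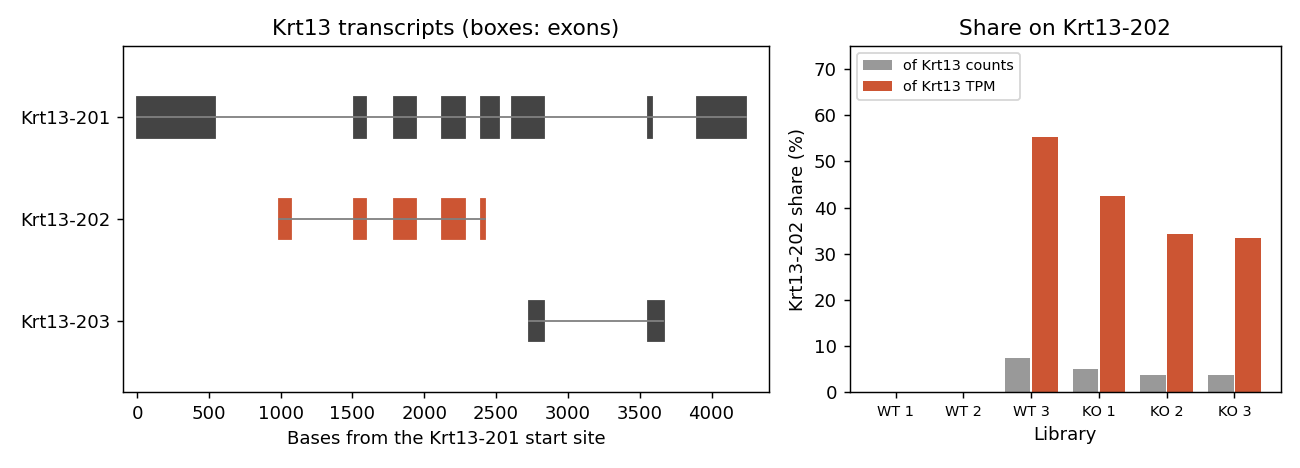
Left, exons (boxes) of the 3 Krt13 transcripts against the distance in bases from the Krt13-201 start site; right, the share of Krt13 estimated counts (grey) and of Krt13 TPM (orange) given to Krt13-202 in each library. In the knockout libraries 3.65% to 5.12% of the counts made up 33.3% to 42.6% of the TPM.

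The ranks of the pair within their families differed between the genotypes in opposite directions. Among 25 type II keratins, Krt4 was the third in TPM in each wild-type library, behind Krt5 and Krt1 and ahead of Krt7, and it held 3.78% to 4.86% of the summed type II TPM. In the knockout it was the eighth or the ninth, at 0.550% to 0.822%, while the summed type II TPM was 520 to 1146 in wild-type and 989 to 1636 in knockout libraries. Its knockout level of 9.71 ± 3.24 TPM did not differ beyond the spread from those of its neighbours Krt80 (10.8 ± 3.94 TPM) and Krt75 (8.94 ± 2.05 TPM), whereas in wild-type its 35.3 ± 18.5 TPM stood between Krt1 at 209 ± 98.6 and Krt7 at 22.6 ± 9.98 TPM (SD, n = 3), the latter within its spread. Among 27 type I keratins, Krt13 was in the tenth or the eleventh place in wild-type and in the seventh, the ninth and the eighth in knockout replicates 1, 2 and 3. It held 0.0661% to 0.0984% of the type I TPM in wild-type and 0.503% to 1.08% in knockout libraries, and its knockout level of 14.4 ± 7.70 TPM lay within the spread of Krt16 (13.4 ± 7.30 TPM, SD, n = 3).

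A number of other keratins rose in the knockout. Of 51 other keratin genes in the files 31 were tested, and 12 of them (38.7%) rose and 0 fell at an adjusted p under 0.05 (edgeR quasi-likelihood test), against 0.348% and 0.0827% of all tested genes, or 0.431% in either direction. Without adjustment, p was under 0.05 (edgeR) for 21 higher and for 1 lower keratin, Krt77, against 1223 of all tested genes in either direction. DESeq2 called 18 higher and 0 lower, against 212 and 87 of all tested genes. With libraries scaled on pan-epithelial genes 15 were called higher and 2 lower, against 95 and 1875 of all tested genes. The median log2 fold change of the 31 was 1.59, against -0.004 for all tested genes. Krt6b (5, 3 and 0 wild-type counts), Krt12 (2, 5 and 1) and Krt32 (6, 4 and 5) passed the filter on low counts only through the knockout libraries. Krt16, at 6, 17 and 11 wild-type counts, needed them as well. Such genes could be called higher but hardly lower, so the counts of calls, the median and the largest fold changes are in part set by the filter. Type II keratins that rose numbered 8 of 15: Krt6a, Krt6b, Krt7, Krt8, Krt75, Krt79, Krt80 and Krt84. Type I keratins that rose numbered 4 of 15: Krt9, Krt16, Krt17 and Krt18. The other tested keratin, Krt222, is counted in neither type. Those that rose include keratins of wounded skin (Krt6a, Krt6b, Krt16, Krt17), of simple epithelia (Krt7, Krt8, Krt18) and of palm and sole skin (Krt9). Krt6a went from 10.3 ± 2.59 to 145 ± 68.0 TPM, Krt17 from 33.1 ± 13.03 to 311 ± 97.1 TPM and Krt8 from 6.00 ± 1.0 to 45.3 ± 13.7 TPM (SD, n = 3), all above the knockout level of Krt13. The suprabasal epidermal pair did not pass the test: Krt1 measured 209 ± 98.6 and 197 ± 83.0 TPM and Krt10 219 ± 36.4 and 226 ± 80.0 TPM in wild-type and knockout (SD, n = 3, adjusted p = 0.9996 and 0.944, edgeR). Krt6b, Krt79 and Krt16 had larger fold changes than Krt13, and 0 tested keratins had a more negative one than Krt4. The number that rose was 4 without WT replicate 3, where 9 of all tested genes rose. It was 7 without knockout replicate 1 and 7 without knockout replicate 3, where 16 and 20 of all tested genes rose. Sequences of Krt6a and Krt6b, and of Krt16 and Krt17, are much alike, so their reads may be divided.

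**Figure D3:**
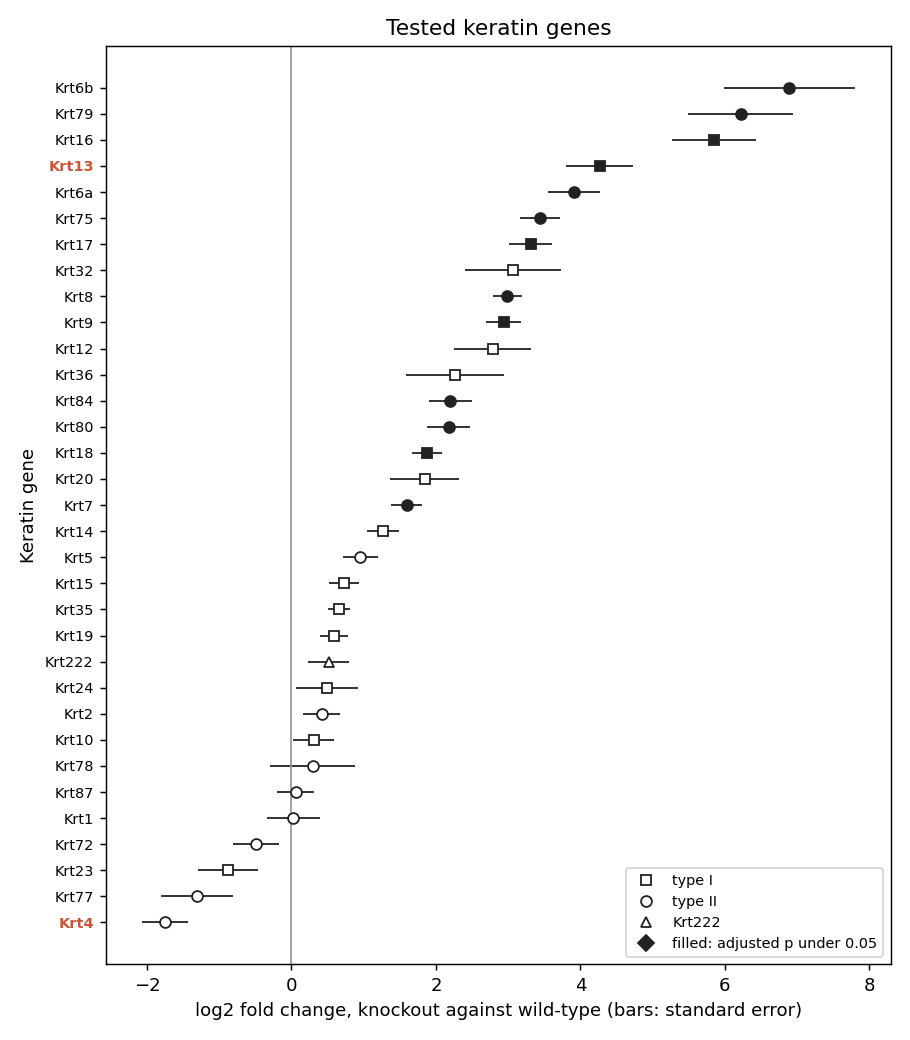
Log2 fold change of knockout against wild-type (points) with its standard error (bars) for the 33 tested keratin genes, squares type I and circles type II, filled where the adjusted p is under 0.05 (edgeR). The names of Krt4, at the lower end with -1.75, and Krt13, at 4.27, are in colour. Both were chosen from this contrast, so the fill of their points is not read as a test.

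Of the 4 tested neighbours of Krt4 in the genome, 1 passed the test, against 0.431% of all tested genes. All 4 are keratins already counted above, where 38.7% rose, so 1 of 4 does not set the neighbours apart. Krt79, a keratin of the hair follicle canal 4597 bases away, measured 0.253 to 0.521 CPM in wild-type and 9.48 to 55.2 CPM in knockout libraries, and it rose (log2 fold change 6.22, SE 0.72, adjusted p = 0.0146, edgeR). That call was lost without WT replicate 2 (adjusted p = 0.0583) or WT replicate 3 (0.137), with limma-voom (0.171), and over the libraries with low Y-linked counts (0.14). Krt77, 48830 bases away on the other side, measured 22.6, 43.1 and 25.3 CPM in wild-type and 21.4, 4.19 and 11.2 CPM in knockout libraries. Its log2 fold change of -1.31 (SE 0.50) was not called (adjusted p = 0.572, edgeR). Krt78 stayed under 0.31 CPM in every library, and Krt1, given above, had a log2 fold change of 0.03. The nearest tested neighbours of Krt13 did not pass the test either: Krt15 and Krt19 had log2 fold changes of 0.73 and 0.59, and Krt35 and Krt36 of 0.66 and 2.26, with adjusted p of 0.183 to 0.47 (edgeR).

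The summed level of a list of epithelial genes also differed between the libraries, and its part in the results was not tested. Summed over 20 pan-epithelial genes, the level was 1619, 2845 and 1703 CPM in wild-type and 4158, 3028 and 4016 CPM in knockout samples, so the groups did not overlap and WT replicate 2 was close to the knockout. Set against that sum, Krt4 measured 23.2, 29.3 and 27.3 CPM per 1000 in wild-type and 5.38, 4.33 and 3.55 in knockout samples. The groups did not overlap on this scale either, and WT replicate 2 stood less far above the other wild-type libraries than it did in CPM. Krt13 measured 0.375, 0.275 and 0.223 per 1000 in wild-type and 3.73, 1.70 and 3.46 in knockout samples. The keratins Krt5, Krt14 and Krt15 made up 62.3% to 72.6% of the sum. The other 17 genes summed to 489.7, 1018 and 641.4 CPM in wild-type and 1187, 891.8 and 1100 CPM in knockout samples, so that without these keratins the groups overlapped, and 4 of the 17 had negative fold changes. Per 1000 CPM of the 17, Krt4 measured 72.5 to 81.9 in wild-type and 12.9 to 18.9 in knockout samples, and Krt13 measured 0.592 to 1.24 and 5.76 to 13.1. With libraries scaled on all 20 genes in the fit, the log2 fold changes were -2.32 for Krt4 and 3.65 for Krt13, where the median of all genes was -0.66, so that relative to it they were -1.66 and 4.31.

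**Figure D4:**
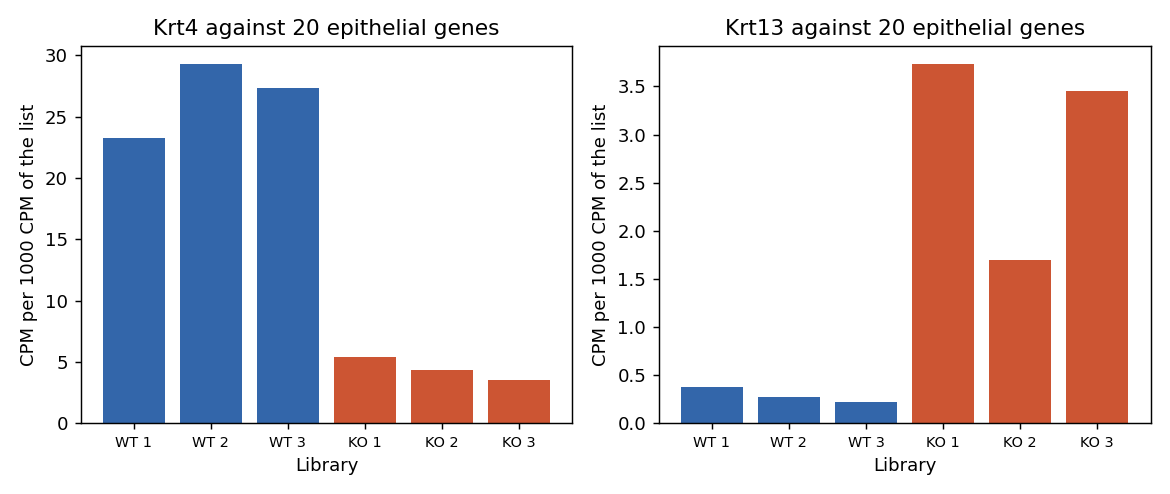
Krt4 (left) and Krt13 (right) CPM per 1000 CPM of the summed 20 pan-epithelial genes, 1 bar per library, blue wild-type and orange knockout. The wild-type bars of Krt4 stand at 23.2 to 29.3 and its knockout bars at 3.55 to 5.38, and those of Krt13 at 0.223 to 0.375 and 1.70 to 3.73.

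Other genes of internal stratified epithelium gave no call. Of 26 genes known from suprabasal oral, tongue or oesophageal cells, 18 were tested and 0 rose or fell (edgeR), with a median log2 fold change of 0.28. Over all 16938 tested genes 0.431% were called, so 0 of 18 does not set the list apart. Before adjustment p was under 0.05 for 3 higher and 1 lower gene, against 1223 of all tested genes in either direction. DESeq2 called 1 in each direction, against 212 higher and 87 lower of all tested genes. With scaling on the pan-epithelial genes 2 were called lower, and so were 1875 of the 16938 tested genes, a like share. The 4 with the smallest p were Anxa1, a phospholipid-binding protein (143 ± 18.8 to 261 ± 77.5 CPM), Tgm3, a cross-linking transglutaminase (11.5 ± 4.63 to 5.34 ± 1.69 CPM), Sprr1a, an envelope precursor (3.20 ± 1.14 to 6.76 ± 3.18 CPM), and Ly6d, a surface protein (14.3 ± 0.178 to 23.9 ± 11.1 CPM; SD, n = 3 each, adjusted p = 0.205 to 0.68, edgeR). Of the 26, 12 stayed under 1 CPM in every library, among them Krt76, the keratin of the hard palate and gums, Sprr3 and Crnn. Markers of oral and foregut identity were low as well: 9 of 12 stayed under 1 CPM in all libraries, among them Sox2, Foxe1, Foxa1 and Nkx2-1, Amelx was at 0, and the list summed to 7.92 to 10.9 CPM in wild-type and 8.59 to 12.0 CPM in knockout libraries.

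The periderm list held more calls. Of 18 periderm genes, from which Krt4 and Krt13 were left out, 6 rose and 0 fell, with a median log2 fold change of 0.77 (edgeR). Over all 16938 tested genes 0.348% rose and 0.0827% fell. At an unadjusted p under 0.05 (edgeR) 12 were higher and 0 lower, against 1223 of all tested genes in either direction. DESeq2 called 10 higher and 0 lower, against 212 and 87 of all tested genes. With scaling on the pan-epithelial genes 6 were called higher and 1 lower, against 95 and 1875. The 6 were Krt6a, Krt7, Krt8, Krt17, Krt18 and the claudin Cldn6, the last of which was at 8.62 ± 2.30 CPM in wild-type and at 26.2 ± 2.64 CPM in knockout samples (SD, n = 3, adjusted p = 0.0146, edgeR). Perp and Gabrp, which serve cell adhesion and GABA signalling and are named after their values were seen, had log2 fold changes of 0.14 and 0.05. Of the 18, 15 had positive and 3 had negative fold changes, the latter being Krt23 (-0.88), Muc1 (-0.43) and Arhgap29 (-0.005). The list summed to 742 to 1087 CPM in wild-type and 1377 to 2282 CPM in knockout libraries, of which its 8 keratins, already counted above, made up 13.7% to 16.3% and 40.5% to 48.8%. The 10 genes that are not keratins, of which Cldn6 alone was called, summed to 621 to 927 and 819 to 1170 CPM and overlapped. Per 1000 CPM of these 10, Krt4 measured 60.6 to 89.9 in wild-type and 14.7 to 19.1 in knockout libraries, and Krt13 measured 0.516 to 0.978 and 6.27 to 14.3. The number of the list that rose was 2 without WT replicate 3, where 9 of all tested genes rose. It was 3 without knockout replicate 1 and 3 without knockout replicate 3, where 16 and 20 of all tested genes rose.

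Among 22 transcription factors of stratified epithelium Grhl3 alone was called, lower in the knockout (log2 fold change -3.14, SE 0.41, adjusted p = 0.0221, edgeR), a call lost without WT replicate 3 (0.0806), knockout replicate 1 (0.162), 2 (0.0759) or 3 (0.121) and with limma-voom (0.0743). Before adjustment 6 others had a p under 0.05 and were higher, and the list median was 0.17. Over all 16938 tested genes 0.431% were called, and 1223 had an unadjusted p under 0.05 (edgeR). Ovol1, a repressor of proliferation in epidermis, went from 11.02 ± 1.26 to 15.9 ± 2.87 CPM and Elf3, an epithelial ETS factor, from 4.41 ± 0.748 to 6.57 ± 0.682 CPM (SD, n = 3), with adjusted p of 0.405 and 0.415 (edgeR). Grhl1 and Grhl2, the relatives of Grhl3, had log2 fold changes of 0.37 and 0.36. With scaling on the pan-epithelial genes, Grhl1, Grhl2, Ovol1 and Elf3 had negative fold changes, above the median of all genes. Klf4 and Klf5, factors of barrier and mucosal epithelium named after their values were seen, were at -0.06 and -0.05.

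Retinoids are known to raise Krt13 in cultured keratinocytes, so retinoid genes were counted. Of 13 such genes, 1 rose, Aldh1a3, an enzyme that makes retinoic acid, at 12.2, 6.84 and 11.1 CPM in wild-type and 37.6, 23.6 and 33.1 CPM in knockout libraries (log2 fold change 1.65, SE 0.24, adjusted p = 0.034, edgeR). The call was lost without WT replicate 2 (0.0583), WT replicate 3 (0.184), knockout replicate 1 (0.183) or knockout replicate 3 (0.133), with effective length offsets (0.0737) and over the libraries with low Y-linked counts (0.105). In edgeR 0 fell, and Aldh1a3 was also the only one with an unadjusted p under 0.05 (DESeq2 called 0 lower). Aldh1a2, the limb mesenchyme enzyme of the same step, Stra6, the retinol transporter, and Cyp26a1, which breaks retinoic acid down, had log2 fold changes of 0.57, 0.25 and 0.28 (adjusted p = 0.727 to 0.936, edgeR). Over all tested genes 0.348% rose and 0.0827% fell, and 1 call among 13 genes says little about the list. The list median was 0.08.

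Across the 6 libraries, Krt4 and Krt13 log2 CPM correlated at -0.795, and their deviations from the genotype means at 0.577. These are descriptions over 6 libraries that share the genotype contrast. Of 12874 genes compared, the 5 most like Krt4 were Tmem254a (Pearson r 0.986), Paqr5 (0.984), Mns1 (0.978), Grhl3 (0.972) and Pax1 (0.971). Tmem254a has copies of nearly the same sequence that may share its reads. Grhl3 and Krt4 also had the same order within the wild-type group, highest in replicate 2 and lowest in replicate 1, which the summed pan-epithelial genes shared, and their deviations from the genotype means correlated at 0.855. The 5 most like Krt13 were Sh3rf2 (0.995), Iffo2 (0.995), Cnksr3 (0.995), Cdh13 (0.994) and Slco2a1 (0.994). By deviations from the genotype means the lists were others, Nrd1, Foxk1, Afap1, Dock1 and Cldn4 for Krt4 (0.994 to 0.999) and Morc4, Ckmt1, Baiap2, Itga9 and Antxr2 for Krt13 (0.985 to 0.994). In each of these correlations the points share the library and its depth.

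Among markers of the other cell types, the summed levels of cartilage and endothelium did not overlap between the genotypes. Of single tested genes, 6.77% had all knockout above all wild-type libraries and 6.16% all below, so such a separation is not rare. The 6 cartilage markers summed to 2932 to 4264 CPM in wild-type and 1808 to 2805 CPM in knockout libraries, and the 5 endothelial markers to 290 to 328 and 347 to 375 CPM. Mesenchyme (7210 to 10100 and 7072 to 10420 CPM), skeletal muscle (436 to 728 and 449 to 731), erythroid (5136 to 8264 and 6108 to 10700), leukocyte (55.4 to 78.6 and 63.1 to 85.9) and neural crest markers (37.2 to 43.0 and 39.8 to 45.1 CPM) overlapped. Their part in the levels of Krt4 and Krt13 was not tested.

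**Figure D5:**
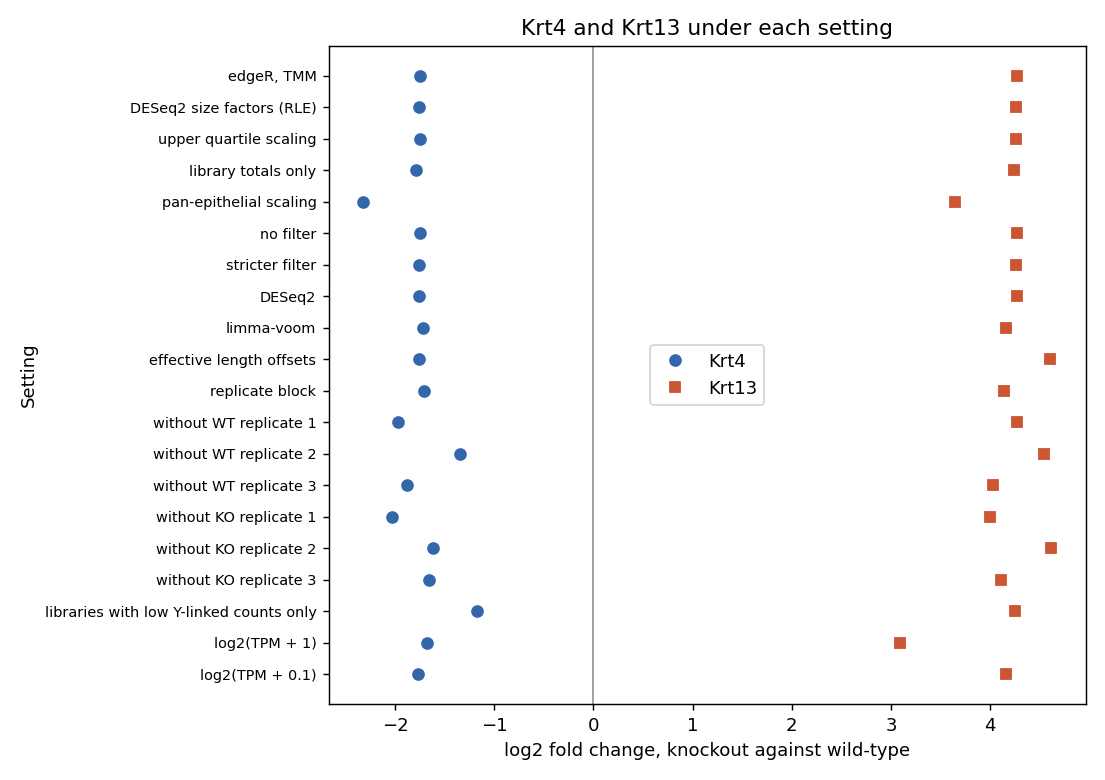
Log2 fold change of knockout against wild-type for Krt4 (circles) and Krt13 (squares) under each setting of scaling, filter, test and libraries, 1 row per setting. Krt4 lies between -2.32 and -1.18 and Krt13 between 3.09 and 4.61 in all of them.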

How the data were processed

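The submitters' processing notes name FastQC, kallisto and the build mm10; neither the version of kallisto nor its transcript set is given in the sources used here. By their names and per the file headers, the deposited tables give an estimated count and a TPM for each of 111462 transcripts in each of 6 libraries; estimated counts are not normalized and TPM corrects for the effective length, which is in bases. The authors' deposited comparison table lists log2 fold changes, log2 CPM, a likelihood ratio score, p-values and FDR values for 941 genes, and only its log2 values were used.

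Transcripts were matched to GENCODE M21 by unversioned identifier (110203 matched). Unmatched transcripts held 0.504% to 0.566% of counts and stayed out. Counts were summed per gene and rounded. Knockout was compared with wild-type by edgeR 4.0.16 (R 4.3.3, quasi-likelihood test, TMM scaling, filterByExpr with a minimum count of 10 and total of 15), adjusted by Benjamini-Hochberg over 16938 genes, called under 0.05; the standard error is the fold change divided by the square root of F. The script was tested on simulated data. The alternatives were other scalings and filters, DESeq2 1.42.0, limma-voom (limma 3.58.1), offsets for effective length, a block for the replicate number, leaving out each library and, chosen after seeing the data, the libraries with low Y-linked counts alone.

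The members, lists and tests were chosen with earlier results of these data known. Named genes are the members, the Grhl genes, 2 tested neighbours on each side, the 5 most alike by each measure (mean log2 CPM of at least 1), all called keratins and up to 4 of each list by p; protein identity was not used here. Some items that this rule names are not reported here. Lists were mucosal, regulator, retinoid, periderm, pan-epithelial, oral and foregut, mesenchyme, cartilage, muscle, endothelium, erythroid, leukocyte, neural crest and Y-linked genes.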

Additional observations from a re-analysis of the deposited data

How the results depend on the processing

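The values of Krt4 and Krt13 kept their direction under every alternative. Krt4 was at -2.32 with pan-epithelial scaling and -1.18 over the libraries with low Y-linked counts (main value -1.75), and Krt13 at 3.09 as log2(TPM + 1) (main value 4.27). With 1 library left out, Krt4 ranged from -2.03 to -1.34, Krt13 from 3.99 to 4.61 and the Krt13-201 share difference from -4.15 to -0.459 points (main value -1.69), and on TPM that difference was -18.3 points. With 15 to 39 Krt13 counts per wild-type library, its fold change and transcript shares are imprecise.

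Over all genes, 73 were called (59 higher, 14 lower, 1223 at an unadjusted p under 0.05). The number was 1970 with pan-epithelial scaling (95 higher, 1875 lower), which gave an infinite prior degree of freedom and a share of higher calls of 4.82% against 80.8%. It was 118 with no filter (90 and 28), 299 with DESeq2 (212 and 87), 45 with limma-voom (4 lower) and 44 with effective length offsets (4 lower). A stricter filter called 7 lower, and the libraries with low Y-linked counts 37 lower. With 1 library left out it ranged from 10 to 206 (9 to 136 higher, 1 to 70 lower). The cause was not tested.

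With the replicate number as a block, 47 genes were called (5 lower), and Krt4 and Krt13 were at -1.71 and 4.14. Same-numbered samples correlated at -0.244, -0.0916 and -0.162 in their deviations from the genotype means, and samples with different numbers at -0.117 to 0.22. The deviations within a group depend on each other, so these values cannot settle whether the numbers pair the samples.

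Other keratins called higher were 5 over the low Y-linked libraries and 4 to 13 with 1 library left out, and 2 were lower with pan-epithelial scaling. The mucosal list had 1 higher (DESeq2; 0 to 1 with 1 library left out) and 2 (pan-epithelial scaling) or 1 (DESeq2) lower. The regulators had 1 higher (DESeq2, low Y-linked libraries) and 2 (pan-epithelial scaling), 0 (limma-voom) or 0 to 1 (1 library left out) lower. The retinoid list had 0 higher (effective length offsets, low Y-linked libraries; 0 to 1 with 1 library left out) and 1 lower (pan-epithelial scaling). The periderm list had 10 (DESeq2), 3 (low Y-linked libraries) or 2 to 6 (1 library left out) higher and 1 lower (pan-epithelial scaling).

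Of 883 values for 52 named genes, 36 changed sign. With pan-epithelial scaling, whose median over all genes was -0.66, these were Aldh1a2 -0.079, Antxr2 -0.56, Baiap2 -0.31, Cdh13 -0.18, Cnksr3 -0.52, Cyp26a1 -0.33, Dock1 -0.51, Elf3 -0.039, Foxk1 -0.58, Grhl1 -0.25, Grhl2 -0.22, Iffo2 -0.33, Itga9 -0.59, Krt1 -0.57, Krt19 -0.026, Krt78 -0.30, Nrd1 -0.59, Ovol1 -0.11, Slco2a1 -0.17 and Stra6 -0.37. Over the low Y-linked libraries they were Afap1 0.11 and Krt78 -0.17. Krt1 was -0.0072 with library totals and -0.014 with limma-voom. With 1 library left out, the ranges were -0.24 to 0.39 for Krt1, -0.10 to 0.058 for Afap1, -0.000145 to 0.26 for Dock1, -0.046 to 0.17 for Foxk1, -0.12 to 0.56 for Krt78 and -0.077 to 0.063 for Morc4.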
